A study of Mus musculus with 10 samples.

Results

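The mitosis and spindle genes are 40 mouse genes that encode the machinery of cell division, from the kinases that start mitosis to the motors that pull the daughter cells apart. They were taken by gene symbol from all 10 RNA-seq libraries of the series, and all 40 were found among 19025 genes. Every member stood at 1 FPKM or more in all 10 libraries, so all 40 entered every comparison. FPKM is the number of sequenced fragments of a transcript, scaled by its length and by the size of the library, so levels can be compared between genes.

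The series profiled 5 groups of C57BL/6 mouse cells, with 2 libraries in each, alongside a study of Polycomb and Trithorax complexes in T lymphocytes. The embryonic stem (ES) cells were of the line B6N-22, grown with leukemia inhibitory factor on a feeder layer of mouse embryonic fibroblasts whose division had been blocked with mitomycin C. B220 B cells and CD4 T cells came from the spleens of mice aged 6 to 8 weeks and were purified on magnetic beads to over 98%. T helper 2 (Th2) cultures were CD4 T cells stimulated with 15 ng/ml interleukin 2 and 10 ng/ml interleukin 4 for 5 days. A further set of such cultures received 10 nM trichostatin A (TSA), an inhibitor of histone deacetylases, on day 2 and was kept in it for 3 more days. The labels name no transgene or deletion in any group.

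Summed deposited FPKM ran from 405438.5 to 521872.1 per library. The number of reads behind these values is not given in the sources used here. The libraries of the ES, B and CD4 T pairs lay close together, with an SD of the log2 ratio of 0.0417, 0.0446 and 0.0458 over genes at 10 FPKM or more. Their squared difference per unit of level, which read sampling alone would hold constant, varied 1.99-, 1.62- and 1.59-fold across bins of level. Depth is unknown, so the spread that sampling alone would give was not computed, and each pair was averaged and counted as 1 sample. The Th2 and Th2+TSA pairs lay further apart (SD 0.307 and 0.322, with 9.51- and 10.1-fold variation) and have n = 2. Libraries are numbered 1 and 2 by experiment. Whether the 2 Th2 libraries of a group stem from different animals or cultures is not in the labels, and p-values then measure only how far these libraries lie apart, which may be technical. Marker genes matched the labels: 10 ES cell markers summed to 2923 and 2927 FPKM in ES libraries and to at most 5.02 elsewhere, and 10 B cell markers summed to 5392 and 5394 in B libraries. Other cells also left RNA. B cell markers summed to 307 and 312 FPKM and myeloid markers to 457 and 452 in the CD4 T libraries, none of either list was at 0 there, and the feeder fibroblast gene Col1a1 stood at 145 and 148 in the ES libraries.

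Mitosis begins when a cyclin-dependent kinase, bound to A- and B-type cyclins and freed by Cdc25 phosphatases, phosphorylates the proteins that condense chromosomes and build the spindle. Chromosomes attach to the spindle at kinetochores, and a checkpoint holds the cell until every attachment is made. A ubiquitin ligase, the anaphase promoting complex, then destroys securin and the cyclins, separase cuts cohesin, and motors and midzone proteins finish division. Most of these genes are transcribed late in the cell cycle and are kept low in resting lymphocytes, which start to divide after stimulation.

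Late cell cycle promoters are known for the cell cycle genes homology region (CHR), bound by the DREAM and MuvB complexes, and for CCAAT boxes, bound by nuclear factor Y (NF-Y). The promoters below are those of the 10 members with the lowest log2 change with TSA among members with a RefSeq entry, from the lowest up, and of Pttg1, the member that rose. Since they were chosen on those values, nothing about TSA is read from their motifs. Each runs 5′ to 3′ on the strand of the gene, from 100 bases before the annotated start to 50 after. Capitals mark CHR letters (TTTGAA or TTCGAA) and CCAAT, each on either strand, so that TTCAAA and ATTGG are also marked. The sequences are those of RefSeq on GRCm38.p6, at chr4:118437294-118437443 (minus strand) for Cdc20, chr2:172370521-172370670 (minus) for Aurka, chr2:131186848-131186997 (plus) for Cdc25b, chr7:122159335-122159484 (plus) for Plk1, chr5:30666786-30666935 (plus) for Cenpa, chr2:164769829-164769978 (plus) for Ube2c, chr13:100786437-100786586 (minus) for Ccnb1, chr9:70421505-70421654 (minus) for Ccnb2, chr2:118598111-118598260 (plus) for Bub1b, chr10:69352863-69353012 (minus) for Cdk1 and chr11:43425932-43426081 (minus) for Pttg1.
Cdc20: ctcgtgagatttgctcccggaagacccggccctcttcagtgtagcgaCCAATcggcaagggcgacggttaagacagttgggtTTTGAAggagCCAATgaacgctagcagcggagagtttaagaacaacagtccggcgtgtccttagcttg
Aurka: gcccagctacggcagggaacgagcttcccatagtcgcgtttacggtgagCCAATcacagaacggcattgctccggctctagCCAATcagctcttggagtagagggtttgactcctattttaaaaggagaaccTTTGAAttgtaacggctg
Cdc25b: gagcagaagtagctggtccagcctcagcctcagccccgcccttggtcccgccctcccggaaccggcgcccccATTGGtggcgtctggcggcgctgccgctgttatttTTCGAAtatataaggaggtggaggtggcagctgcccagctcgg
Plk1: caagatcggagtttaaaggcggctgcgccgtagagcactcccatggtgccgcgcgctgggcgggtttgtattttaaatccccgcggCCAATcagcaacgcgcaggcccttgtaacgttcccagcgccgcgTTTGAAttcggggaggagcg
Cenpa: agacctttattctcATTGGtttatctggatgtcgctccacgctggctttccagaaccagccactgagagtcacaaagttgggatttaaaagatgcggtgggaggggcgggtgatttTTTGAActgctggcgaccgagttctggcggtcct
Ube2c: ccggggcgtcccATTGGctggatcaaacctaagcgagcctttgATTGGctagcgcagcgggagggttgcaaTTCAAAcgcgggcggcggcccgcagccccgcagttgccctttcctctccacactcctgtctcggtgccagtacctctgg
Ccnb1: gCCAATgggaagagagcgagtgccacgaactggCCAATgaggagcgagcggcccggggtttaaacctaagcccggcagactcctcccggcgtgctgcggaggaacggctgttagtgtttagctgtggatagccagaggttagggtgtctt
Ccnb2: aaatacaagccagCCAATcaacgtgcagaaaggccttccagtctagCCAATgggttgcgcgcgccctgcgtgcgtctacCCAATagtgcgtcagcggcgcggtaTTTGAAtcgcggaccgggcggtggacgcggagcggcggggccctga
Bub1b: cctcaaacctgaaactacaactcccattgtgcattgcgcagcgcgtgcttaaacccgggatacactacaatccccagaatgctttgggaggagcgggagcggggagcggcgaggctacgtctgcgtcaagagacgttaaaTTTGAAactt
Cdk1: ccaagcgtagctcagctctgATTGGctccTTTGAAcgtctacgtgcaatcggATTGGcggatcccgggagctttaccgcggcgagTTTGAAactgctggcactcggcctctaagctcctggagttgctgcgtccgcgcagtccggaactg
Pttg1: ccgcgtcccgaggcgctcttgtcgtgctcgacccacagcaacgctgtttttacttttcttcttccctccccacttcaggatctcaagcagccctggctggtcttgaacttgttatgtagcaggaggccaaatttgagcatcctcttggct
In these 150 bases Ccnb1 holds CCAAT matches but no CHR match, Bub1b a CHR match but no CCAAT match, and Pttg1 neither, while the others hold both. The annotated RefSeq start of Pttg1 lies inside the gene as GENCODE draws it (chromosome 11, 43420250 to 43426251), so its window is not the stretch before the GENCODE start.

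Over the full windows of 300 bases, from 250 before to 50 after the start, RefSeq had an entry for 33 of the 40 members, in 35 windows. No entry was found for Aurkb, Ccna2, Cdc25c, Foxm1, Incenp, Kif20a or Tpx2. A CHR match stood in 27 of the 35 windows (77.1%), against 19.2% of all 32851 windows in the table. CCAAT stood in 27 (77.1%) against 37.4%, and 2 or more CCAAT matches in 17 (48.6%) against 11.7%. Both motifs stood in 24 windows (68.6%) against 7.52%. A CHR match from 100 bases before to 50 after the start, together with 2 or more CCAAT matches, stood in 14 windows (40%) against 1.09%. Of 31 neighbouring CCAAT pairs, 9 were 30 to 35 bases apart, and 1 CHR match shared a base with a CCAAT match. Birc5, Mad2l1, Nuf2, Nusap1 and Pttg1 had neither motif in this window. As for Pttg1, the windows of Kif2c, Cdca8 and Cdca3 and 1 window of Bub3 lie wholly inside the gene as GENCODE draws it. The window of Mad2l1 (chromosome 6, 66534971 to 66535270, plus strand) ends before the GENCODE start at 66535390. A match is a run of letters, and binding was not measured.

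The members were high in ES cells and Th2 cultures and low in the B and CD4 T cells. Summed over the 40 genes, their level was 2379 and 2386 FPKM in the ES libraries, 373 and 372 in B, 402 and 399 in CD4 T, 2889 and 2697 in Th2, and 2142 and 1739 in Th2 cultures with TSA. These sums are 0.601% and 0.602% of the FPKM of all genes in ES cells, 0.105% in both B libraries, 0.110% and 0.109% in CD4 T, 0.699% and 0.607% in Th2, and 0.481% and 0.371% with TSA. In bulk RNA, fewer cells in division and less RNA per dividing cell cannot be told apart.

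**Figure D1:**
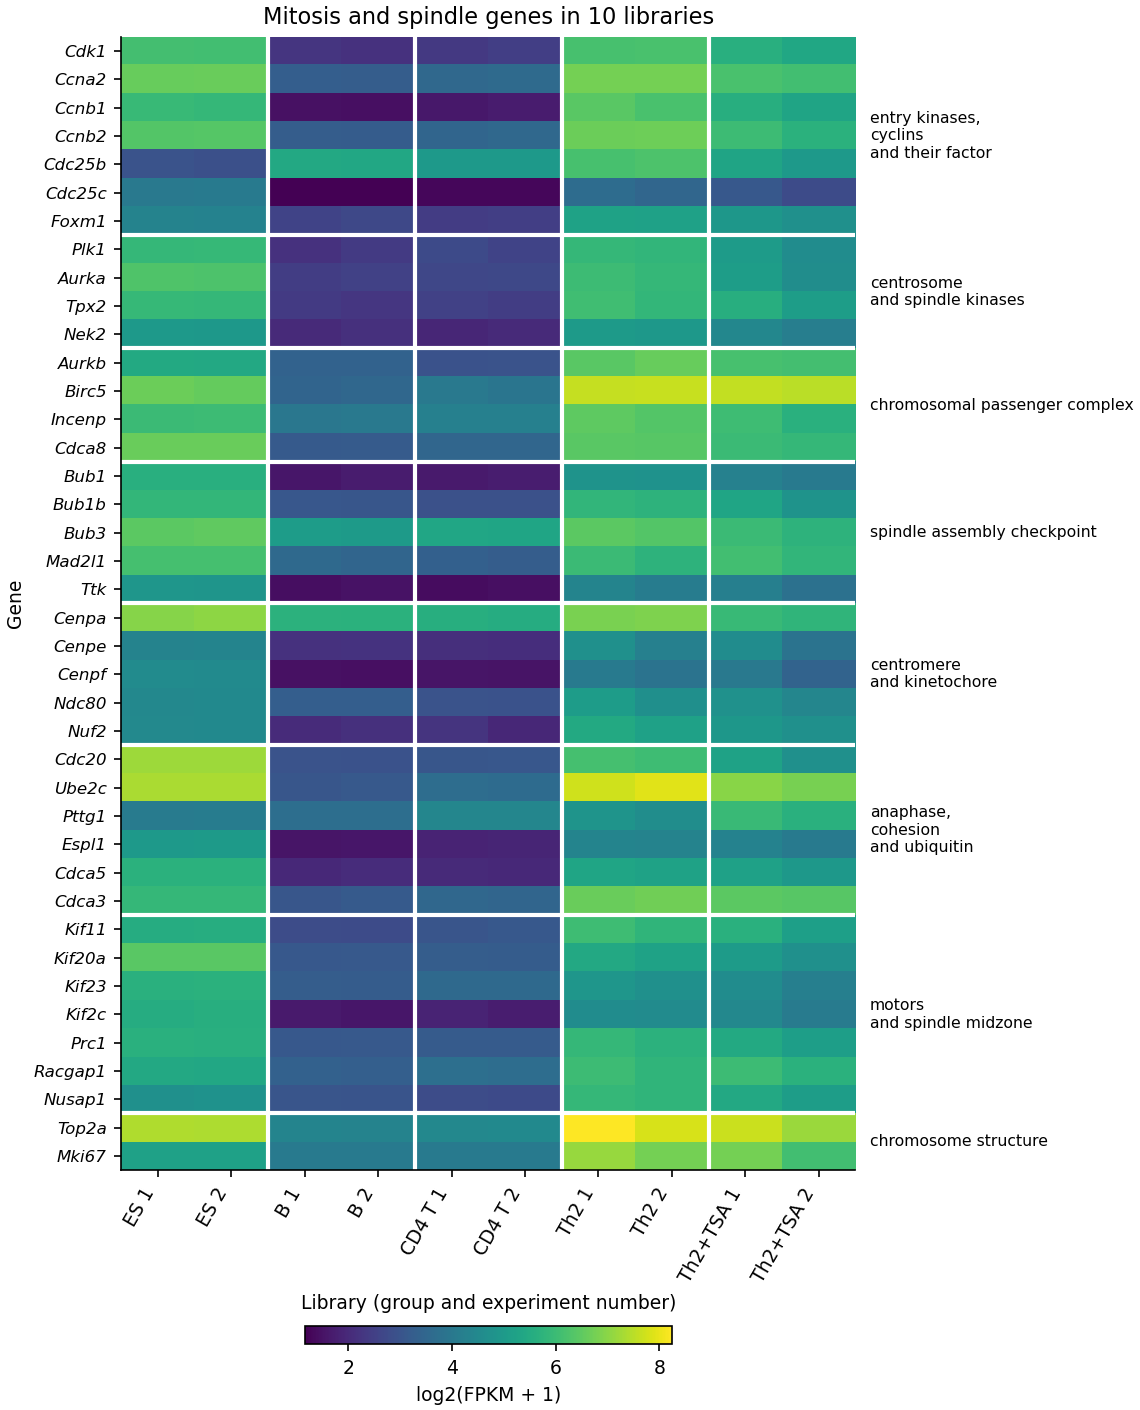
Level of each of the 40 members (rows, in order of role) in each of the 10 libraries (columns), as log2(FPKM + 1) by colour from dark (low) to yellow (high). The B and CD4 T columns are dark for nearly all rows, while Cdc25b is dark in ES cells, and Pttg1 is brightest in the 2 libraries with TSA.

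Of the 40 members, 38 had every ES and Th2 library above every B and CD4 T library, where 21.9% of the 12367 genes compared did. The exceptions were Cdc25b and Pttg1. At 10 FPKM or more stood 39 members in ES cells, all 40 in Th2 cultures, 15 in CD4 T cells and 9 in B cells.

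ES cells were first set against the spleen cells, with 1 sample a side and no replicate test. A gene counted as different when its log2 fold change was at least 2 and the higher group had at least 5 FPKM. Against CD4 T cells, 30 members were higher in ES cells by this rule (11.9% of the 12907 genes were) and 1, Cdc25b, was lower (10.8% were). The member median was a log2 fold change of 2.85, where the median of all genes was 0.16. Against B cells 31 were higher (13.4% of all genes) and 1, again Cdc25b, was lower (9.45% of all genes), with a member median of 2.87 and a median over all genes of 0.30.

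Entry genes held the widest range. Ccnb1, a B-type cyclin that activates the mitotic kinase, stood at 59.8 and 57.4 FPKM in ES cells, 1.80 and 1.73 in B cells and 2.07 and 2.26 in CD4 T cells. Its CD4 T level was 3.7% of its ES level, the lowest share of any member, and the ES to CD4 T difference was 4.23 on the log2 scale. Cdk1, the mitotic kinase itself, was at 68.3 and 67.3 in ES cells, 3.78 and 3.52 in B and 4.07 and 4.60 in CD4 T. Cdc20, which activates the anaphase promoting complex, was at 146 and 147 in ES cells, 6.86 and 6.73 in B and 7.31 and 7.53 in CD4 T. For these 3 genes the ES and spleen libraries did not overlap.

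Cdc25b ran the other way. This phosphatase, an activator of the cyclin-dependent kinases, was at 6.79 and 6.39 FPKM in ES cells, the lowest member there, but at 42.2 and 41.3 in B cells and 31.0 and 30.6 in CD4 T cells. The ES to B difference was -2.49 on the log2 scale. Its relative Cdc25c, with a similar role in mitotic entry, was the lowest member in both spleen cell types, at 1.23 and 1.25 in B and 1.41 and 1.45 in CD4 T, against 15.2 and 15.7 in ES cells.

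Several members kept a level in spleen cells. Cenpa, the histone H3 variant that marks centromeres, was the highest member in B and CD4 T cells, at 51.3 and 50.2 and at 47.2 and 45.6 FPKM, against 124 and 129 in ES cells. Bub3, a checkpoint protein also present outside mitosis, was at 32.9 and 31.5 in B, 39.7 and 39.3 in CD4 T and 86.7 and 89.7 in ES cells. Pttg1, which encodes securin, the inhibitor of separase, was at 12.2 and 12.1 in B, 20.1 in both CD4 T libraries and 16.2 and 16.5 in ES cells. The ES to CD4 T difference was -0.28 for Pttg1, the only member beside Cdc25b with a value below 0, and 1.14 for Bub3. The members short of the size rule against CD4 T cells were Foxm1, Incenp, Bub3, Cenpa, Ndc80, Pttg1, Racgap1, Nusap1 and Mki67, and against B cells the same without Racgap1. For the median member the CD4 T level was 12.7% of the ES level and the B level 11.2%.

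**Figure D2:**
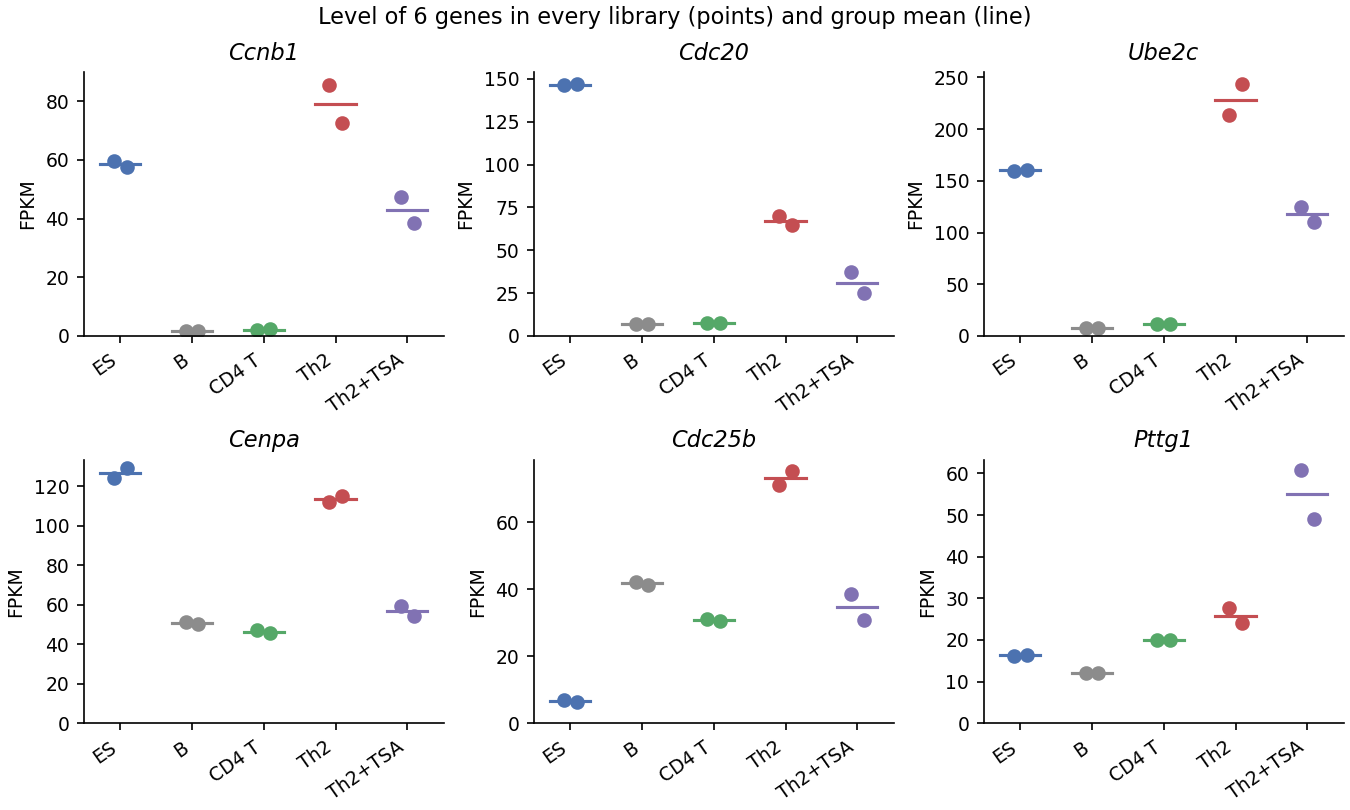
FPKM of Ccnb1, Cdc20, Ube2c, Cenpa, Cdc25b and Pttg1 in each of the 5 groups. Each point is 1 library and each line the group mean, on axes that start at 0. Cdc25b is lowest in ES cells, and Pttg1 is near 50 to 61 FPKM with TSA and below 28 in every other library.

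B and CD4 T cells were alike in scale. By the size rule 0 members were higher in CD4 T cells (2.56% of all genes were) and 0 lower (1.7% were). The member median was 0.14 as deposited, with 28 members above 0, and -0.06 after quantile normalization, with 14 above 0, so no direction is given. The widest differences were those of Pttg1 (0.69) and Ube2c (0.57), higher in CD4 T cells, and of Aurkb (-0.44) and Cdc25b (-0.43), lower. Ube2c, the E2 enzyme of the anaphase promoting complex, was at 11.8 and 11.4 FPKM in CD4 T and 7.30 and 7.74 in B cells. Aurkb, the kinase of the chromosomal passenger complex, was at 6.65 and 6.80 in CD4 T and 9.55 and 9.45 in B cells.

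Th2 cultures were compared with the CD4 T cells they were made from by limma on log2(FPKM + 1), with Benjamini-Hochberg adjustment over 12367 genes and a call at an adjusted p below 0.05. In this test 39 of the 40 members rose (16.9% of all genes did) and 0 fell (38.1% of all genes did), and 0 members were lower at an unadjusted p below 0.05. The member median was a log2 fold change of 2.88, where that of all genes was -0.28. The median of all genes was 0.02 after quantile normalization and -0.10 after median-ratio scaling, and the member medians were then 3.15 and 3.13. Th2 files and CD4 T files are of different kinds: of 1449 symbols with several rows, the rows were identical for 1163 in the Th2 files and for 11 in the others. The kind of file and the group cannot be told apart. Without Th2 library 1 the member median was 2.80, and without Th2 library 2 it was 2.96. That of all genes was -0.28 in both fits. Fewer members and fewer of all genes were called in these fits, which have 1 residual degree of freedom.

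In every role group except the anaphase genes, all members rose: 7 of 7 entry genes, 4 of 4 spindle kinase genes, 4 of 4 passenger genes, 5 of 5 checkpoint genes, 5 of 5 kinetochore genes, 7 of 7 motor and midzone genes and both chromosome genes. Among the anaphase genes 5 of 6 rose. The largest rise was that of Ccnb1, to 85.7 and 72.6 FPKM in Th2 cultures (limma log2 fold change 4.66 with SE 0.20, adjusted p = 0.00206). Ube2c followed, at 214 and 243 FPKM (4.18, SE 0.14, limma adjusted p = 0.00146), and Cdk1, at 72.1 and 73.3 (3.79, SE 0.14, limma adjusted p = 0.00159). In all 3 genes both Th2 libraries stood far above both CD4 T libraries.

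Birc5, which encodes survivin of the passenger complex, rose from 15.3 and 14.1 to 197 and 201 FPKM (log2 fold change 3.67), and its partner kinase Aurkb to 85 and 96.1 (3.56). Top2a, the topoisomerase that untangles chromosomes, rose from 20.9 and 22.1 to 302 and 225 (3.54) and was the highest member in Th2 library 1. Mki67, the gene of the proliferation antigen Ki-67, rose from 15.6 and 15.7 to 142 and 107 (2.90). Its adjusted p by limma was 0.0130, and 0.0634 without Th2 library 1 and 0.0571 without library 2. The 2 Th2 libraries differed more for Top2a and Mki67 than for Birc5, with library 1 the higher.

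Aurka and Plk1, kinases that mature the centrosomes and build the spindle, rose by 3.28 and 3.18 on the log2 scale, from 5.34 and 5.41 to 63.5 and 58.2 FPKM for Aurka and from 5.74 and 5.03 to 57.8 and 55.6 for Plk1. Among checkpoint genes, Bub1, a kinase that recruits the others to the kinetochore, rose from 2.18 and 2.33 to 26.6 and 26.1 (3.07), and Mad2l1, the Mad2 protein that blocks Cdc20, from 9.03 and 8.44 to 62.4 and 52.2 (2.58). Kif11, the motor that pushes the spindle poles apart, rose from 7.07 and 7.59 to 64.8 and 54.9 (2.86). These 5 genes thus went from single figures to above 25 FPKM in both Th2 libraries.

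The smallest rises were those of Bub3, Cdc25b, Kif23 and Cenpa. Bub3 went to 86.7 and 80.4 FPKM (log2 fold change 1.06), Cdc25b to 71.2 and 75.3 (1.22), Kif23, a midzone motor, from 10.9 and 11.0 to 28.6 and 25.5 (1.23), and Cenpa to 112 and 115 (1.27). Without either Th2 library, the calls of Bub3, Cdc25b and Kif23 were lost, with limma adjusted p values of 0.0696 to 0.103. The rise of Cdc25b was 0.26 (limma adjusted p = 0.264) when its rows were summed in the CD4 T files and the highest row was kept in the Th2 files. Pttg1 did not pass the test, at 27.6 and 24.0 FPKM in Th2 cultures against 20.1 in both CD4 T libraries (0.34, SE 0.19, limma adjusted p = 0.218).

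Other genes of the cycle differed by group, in a comparison where 16.9% of all genes rose and 38.1% fell. Among 63 further mitosis genes, 55 rose and 2 fell, with a median of 2.35. Fam64a, a partner of the anaphase promoting complex, and Cks1b, a subunit of cyclin-dependent kinases, rose most (4.19 and 4.01), and Numa1, a spindle pole protein, and Hjurp, the chaperone that loads the Cenpa protein, fell (-1.44 and -1.43). All 29 S phase genes rose, with a median of 2.13. Of 17 condensin and cohesin genes 6 rose and 1 fell (median 0.30): the condensin genes Ncaph and Ncapg rose by 2.82 and 2.80, and the cohesin loader Nipbl fell by 1.33. Of 14 core genes of the anaphase promoting complex and its partners 2 rose, Ube2s (3.23) and Fzr1 (1.23), and 0 fell, also at an unadjusted p below 0.05 (median -0.01). The 2 that rose are 14.3% of this list, near the share of all genes that rose. Of 17 DREAM, MuvB and E2F genes 9 rose and 1 fell (median 0.59): Mybl2, the B-Myb factor of late cycle promoters, rose by 3.02, and E2f5 fell by 1.57. In this comparison 10 of 10 B cell markers and 9 of 9 tested myeloid markers fell, and the part of these other cells in the members' result was not tested.

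ES cells and Th2 cultures, the groups with high member levels, differed gene by gene. By the same limma test 8 members were higher in Th2 cultures (19% of all genes were) and 6 lower (43.1% of all genes were), with a member median of 0.12 and a median over all genes of -0.41. The 8 are 20% of the members, near the share of all genes that were higher. The 6 are 15%, below the share of all genes that were lower. The split of calls was 11 higher and 5 lower after quantile normalization and 13 higher and 3 lower after median-ratio scaling. Of all 12367 genes, 3901 were higher and 3960 lower after quantile normalization, and 2926 and 4270 after median-ratio scaling. In these scalings the median of all genes was -0.0019 and -0.18. Without either Th2 library 4 members were called, all higher in Th2 cultures: Cdc25b, Birc5, Aurkb and Cdca3. Fewer of all genes were called in those fits too, which have 1 residual degree of freedom. Here too the kind of file and the group cannot be told apart.

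**Figure D3:**
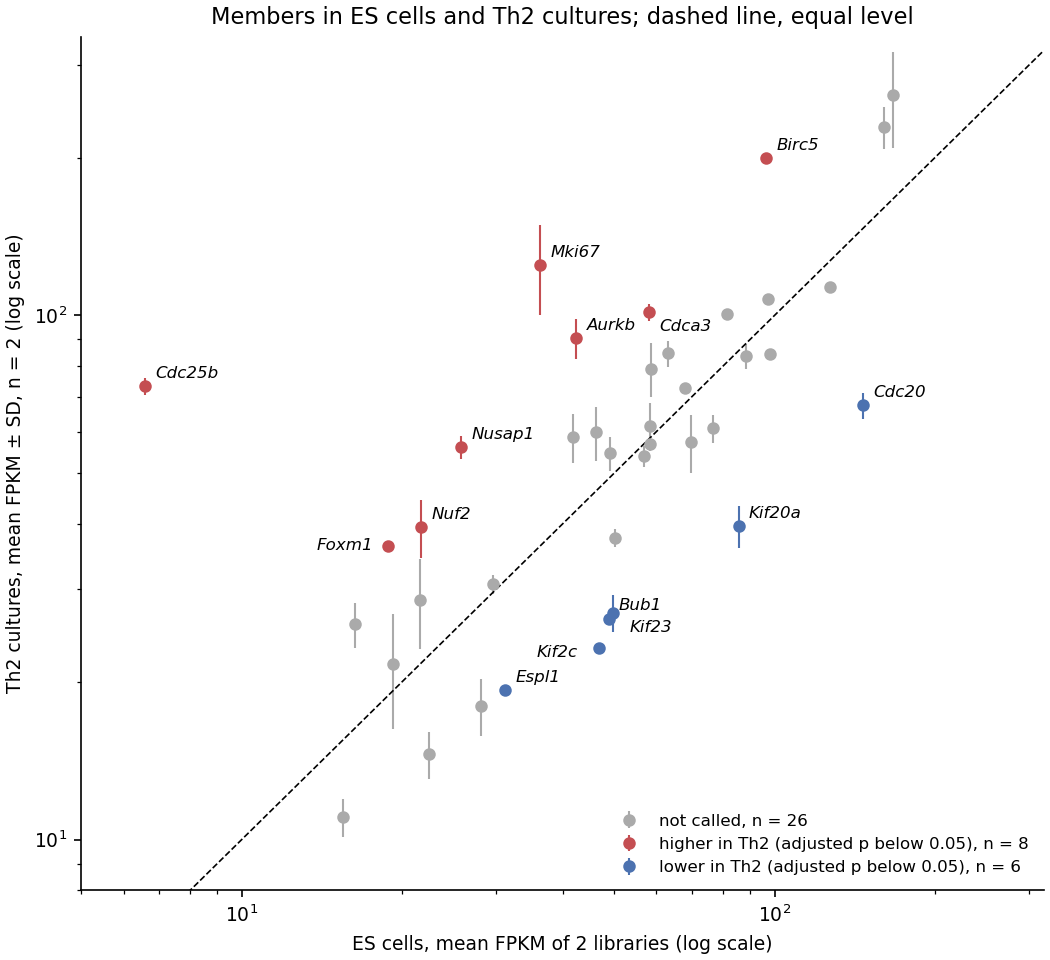
Mean FPKM of each member in ES cells (x axis, log scale) and in Th2 cultures (y axis, log scale), with the SD of the 2 Th2 libraries as bars. Members called by limma are coloured and named: 8 lie above the dashed line of equal level, with Cdc25b farthest, and 6 lie below it.

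Cdc25b differed most, at 73.2 ± 2.84 FPKM in Th2 cultures (SD, n = 2) and 6.79 and 6.39 in ES cells (limma log2 fold change 3.29 with SE 0.17, adjusted p = 0.00145). Mki67 was at 125 ± 24.5 (SD, n = 2) against 36.4 and 36.1 (1.74, limma adjusted p = 0.0334). Nusap1, a protein that bundles spindle microtubules, was at 58.1 and 54.1 against 25.3 and 26.3 (1.09), but at 0.14 (limma adjusted p = 0.538) with rows summed in the ES files and the highest row kept in the Th2 files. The passenger genes Aurkb and Birc5 were higher by 1.07 and 1.04: Aurkb stood at 85 and 96.1 against 42.7 and 42.2, and Birc5 at 197 and 201 against 98.6 and 94.1. Cdc25b and Birc5 too have more than 1 row, so their ES levels depend on the row rule. With rows summed in the ES files and the highest row kept in the Th2 files, 7 members were called higher and 7 lower. Of 12401 genes, 2254 and 5684 were. Foxm1, a transcription factor of late cycle genes, was higher by 0.92 (36.5 and 36.2 against 18.9 and 18.7), Nuf2, a kinetochore protein that pairs with Ndc80, by 0.83 (42.9 and 35.9 against 21.6 and 21.8), and Cdca3, a regulator of mitotic entry, by 0.79 (98.6 and 104 against 58.2 and 57.8). In all 8 the Th2 libraries lay above the ES libraries.

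Cdc20 was lowest against ES cells, at 70.0 and 64.6 FPKM in Th2 cultures and 146 and 147 in ES cells (limma log2 fold change -1.11 with SE 0.28, adjusted p = 0.0433). Median-ratio scaling gave -0.82 (limma adjusted p = 0.0779). Of the motors, Kif20a, needed for cytokinesis, was at 42.2 and 37.1 against 86.1 and 85.1 (-1.09), Kif2c, which takes microtubules apart at centromeres, at 23.5 and 22.9 against 45.8 and 47.7 (-0.98), and Kif23 at 28.6 and 25.5 against 49.2 and 50.1 (-0.86). Bub1 was at 26.6 and 26.1 against 48.8 in both ES libraries (-0.86). Espl1, the gene of separase, was at 19.4 and 19.1 against 31.0 and 31.3 (-0.67). The exons of Kif20a overlap those of Cdc23 on the other strand over 29.3% of their bases, and those of Cdc25c overlap Gm3550 over 12.7%. Whether counting used strand is not given in the sources used here.

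By role, the Th2 sum as a share of the ES sum ran from 82% for the checkpoint genes, 92.5% for motors and midzone, 94.1% for spindle kinases, 103% for kinetochore and 104% for anaphase genes to 139% for entry genes, 153% for the passenger complex and 191% for Top2a and Mki67 together. These shares take the highest row of each gene. The 4 spindle kinase genes had 0 calls, also at an unadjusted p below 0.05. Among further mitosis genes 6 of 63 were higher and 19 lower (median -0.22), and among S phase genes 8 of 29 were higher and 3 lower (median 0.08). These are 9.52% and 30.2% of the mitosis list and 27.6% and 10.3% of the S phase list. Of all genes 19% were higher and 43.1% lower. Among DREAM, MuvB and E2F genes, E2f2 and Rbl2, which encodes the pocket protein p130, were higher in Th2 cultures (3.11 and 2.95) and E2f5 and Mybl2 lower (-2.93 and -2.44). Mybl2 stood at 146 and 148 FPKM in ES cells and at 27.1 and 25.3 in Th2 cultures.

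Cultures with TSA were compared with untreated Th2 cultures, on files of the same kind, over 12440 genes. The members stood lower with TSA: the level was lower in 37 of 40 in experiment 1 and in 38 of 40 in experiment 2. The log2 fold change was below 0 in 38 members and in 5546 of all 12440 genes. The member median was a log2 fold change of -0.52, where that of all genes was 0.04. After quantile normalization the member median was -0.40 and after median-ratio scaling -0.50. By limma 6 members fell (4.72% of all genes did) and 1 rose (10.1% of all genes did), while 33 did not pass. At an unadjusted p below 0.05, 23 members were lower and 1 higher, where 1856 of all 12440 genes were lower and 2906 higher. Leaving out any one of Th2 library 1, Th2 library 2, TSA library 1 or TSA library 2 left 0 members called, with 6, 7, 25 and 14 members lower and 1 higher at an unadjusted p below 0.05. Of all 12440 genes, 0 were called without Th2 library 1 or without Th2 library 2, 341 higher and 21 lower without TSA library 1, and 14 higher and 0 lower without TSA library 2. Those fits have 1 residual degree of freedom, and the full fit has 2.

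Both TSA libraries lay below both Th2 libraries in 32 members (28.1% of all genes did) and above both in 1, Pttg1 (38.1% of all genes did). The groups overlapped in Mad2l1, Ttk, Cenpe, Cenpf, Ndc80, Racgap1 and Mki67. The level with TSA as a share of that without had a median of 73.9% in experiment 1 and 64.7% in experiment 2. With the highest row of each gene, both TSA libraries were above both CD4 T libraries in 39 members, all but Cdc25b (34.9% of all genes were above).

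**Figure D4:**
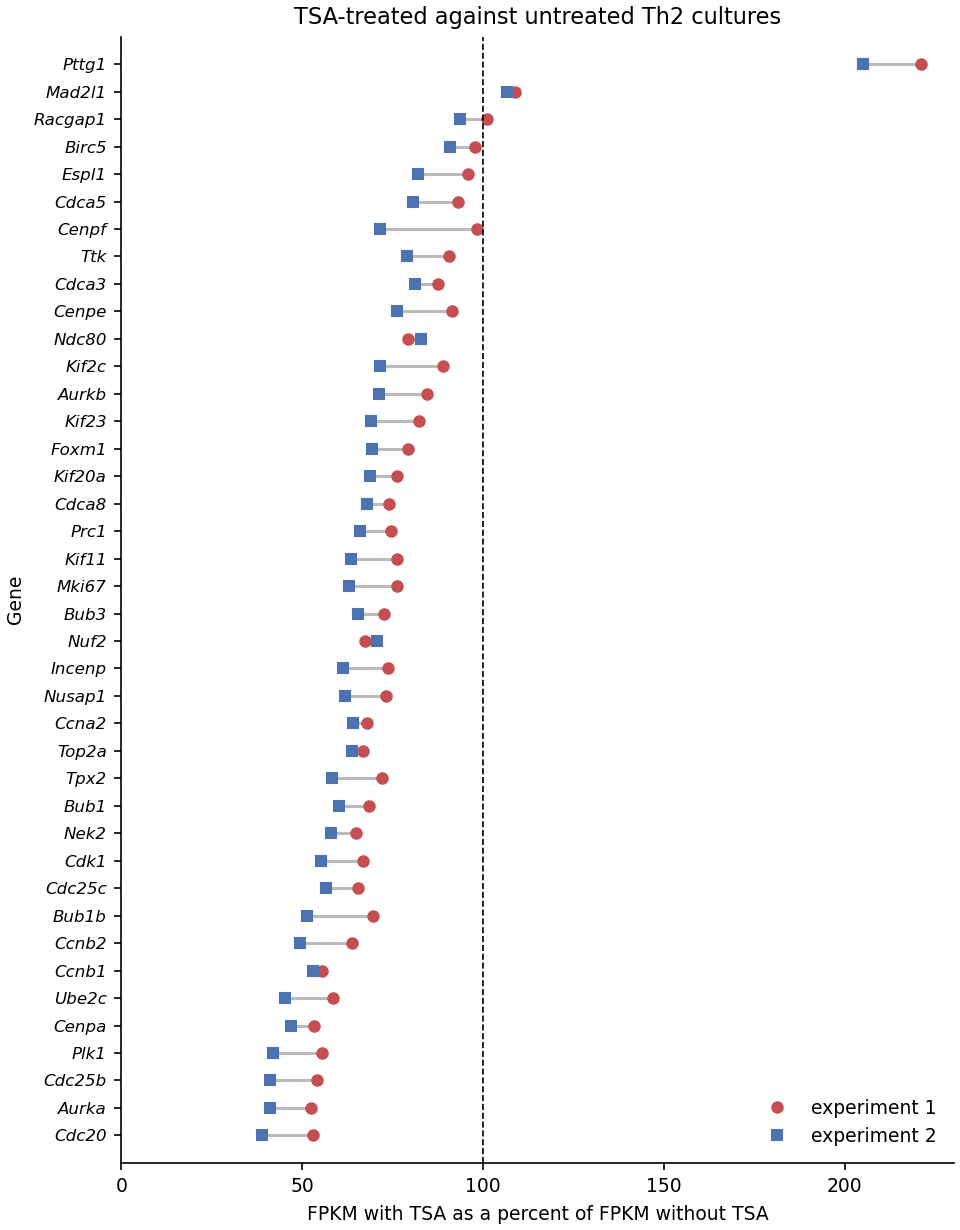
FPKM with TSA as a percent of FPKM without it for each of the 40 members, in experiment 1 (circles) and experiment 2 (squares), ordered by their mean. Cdc20, Aurka, Cdc25b and Plk1 lie lowest, and Pttg1 alone lies near 200 percent.

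Of the 6 members that fell, 3 were entry genes. Cdc25b fell from 71.2 and 75.3 FPKM to 38.5 and 30.9 (limma log2 fold change -1.06 with SE 0.14, adjusted p = 0.0391), beside CD4 T levels of 31.0 and 30.6. Those CD4 T levels are of its highest row and depend on the row rule. With rows summed in the CD4 T files, its rise in Th2 cultures was smaller, as given above. Cdk1 fell from 72.1 and 73.3 to 48.1 and 40.5 (-0.71, SE 0.11, limma adjusted p = 0.0484). Ccna2, the cyclin that acts in S phase and at mitotic entry, fell from 108 and 107 to 73.7 and 68.1 (-0.59, SE 0.07, limma adjusted p = 0.0353). In all 3 genes the treated and untreated libraries did not overlap. The exons of Ccna2 overlap those of Exosc9 on the other strand over 12.5% of their bases.

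Cenpa fell from 112 and 115 FPKM to 59.5 and 54.1 (limma log2 fold change -0.99 with SE 0.08, adjusted p = 0.0290), beside CD4 T levels of 47.2 and 45.6. Ube2c fell from 214 and 243 to 125 and 110 (-0.95, SE 0.12, limma adjusted p = 0.0369), while its CD4 T level was 11.8 and 11.4. Its exons overlap those of Tnnc2 on the other strand over 22.8% of their bases. Cdca8, which encodes borealin of the passenger complex, fell from 84.8 and 84.3 to 62.7 and 57.3 (-0.49, SE 0.07, limma adjusted p = 0.0447). The call of Cdca8 was lost after quantile normalization (limma adjusted p = 0.0775), and that of Cdk1 at a pseudocount of 0.1 (limma adjusted p = 0.0508) and with the experiment number as a block (limma adjusted p = 0.0562). With no filter on low values the test called 2 members, Cenpa and Ccna2.

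Pttg1 rose, from 27.6 and 24.0 FPKM to 60.9 and 49.1 (limma log2 fold change 1.06 with SE 0.15, adjusted p = 0.0440). Its treated level was 221% of the untreated in experiment 1 and 205% in experiment 2 and was the highest of any group. Securin is a protein that Cdc20 and Ube2c help to destroy in anaphase. Protein levels were not measured in these libraries, and a link of this to the Pttg1 RNA level was not tested.

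Several differences of like size did not pass. Cdc20 was at 70.0 and 64.6 FPKM without and 37.1 and 25.2 with TSA (-1.11, limma adjusted p = 0.0678), and Aurka at 63.5 and 58.2 without and 33.4 and 23.9 with it (-1.08, limma adjusted p = 0.0583). Plk1 was at 57.8 and 55.6 and then 32.1 and 23.3 (-1.02, limma adjusted p = 0.0584). The cyclin genes Ccnb1 and Ccnb2 had values of -0.87 and -0.82, Ccnb1 at 85.7 and 72.6 and then 47.4 and 38.5, and Ccnb2 at 100.1 and 101 and then 63.7 and 50.1. In these 5 genes the treated libraries lay below the untreated ones, and the TSA libraries differed from each other, library 1 being higher. All 5 passed after quantile normalization, which called 10 members lower and 1 higher. Of all 12440 genes it called 1075 lower and 1166 higher, where the main fit called 587 lower and 1255 higher.

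At the other end, Mad2l1 was at 62.4 and 52.2 FPKM without and 67.9 and 55.7 with TSA (0.11, limma adjusted p = 0.654), and Racgap1, the partner of Kif23 at the midzone, at 63.1 and 54.2 and then 63.7 and 50.8 (-0.04, limma adjusted p = 0.877). The sign of both values changed when a library was left out, and that of Racgap1 also after quantile normalization. Birc5 was at 197 and 201 and then 193 and 183 (-0.08, limma adjusted p = 0.382). For Mki67, the values were 142 and 107 and then 108 and 67.4 (-0.52, SE 0.32, limma adjusted p = 0.313), so the spread between libraries was as wide as the difference.

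By role, the summed level with TSA as a share of that without was lowest for the spindle kinase genes, at 61% in experiment 1 and 48.7% in experiment 2, followed by entry genes (63.4% and 54.5%), kinetochore genes (66.9% and 59.5%) and chromosome genes (69.8% and 63.4%). Anaphase genes were at 77.8% and 63.8%, motors and midzone at 81.4% and 70.8%, checkpoint genes at 82% and 72.1%, and the passenger complex at 86.2% and 77.5%. Experiment 2 gave the lower share in all 8 groups. Differences between the role groups were not tested.

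Of 63 further mitosis genes 5 fell with TSA and 0 rose (1 was higher at an unadjusted p below 0.05), with a median of -0.41. These 5 are 7.94% of the list, where 4.72% of all genes fell. The largest fall was that of Fam64a, from 59.2 and 60.2 FPKM to 22.5 and 18.5 (-1.51, limma adjusted p = 0.0306), next to Spc24, a subunit of the Ndc80 complex (-0.98). Of 29 S phase genes 4 (13.8%) fell and 0 rose (2 were higher at an unadjusted p below 0.05), with a median of -0.27, among them the thymidine kinase gene Tk1 (-1.0) and Cdc45, a helicase factor (-0.71). Of 17 DREAM, MuvB and E2F genes 1 fell, Mybl2, from 27.1 and 25.3 to 14.1 and 12.6 (-0.92, limma adjusted p = 0.0328). Of 17 condensin and cohesin genes 1 fell, Rad21 (-0.67). For both of these lists 1 gene is 5.88%, near the share of all genes that fell. Of 14 core genes of the anaphase promoting complex 0 passed, with 1 higher and 1 lower at an unadjusted p below 0.05 (median -0.19).

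The members were also set out by the motifs in their promoter windows, a grouping made after the values were seen and given as a description. With both motifs, the TSA values of 22 members ran from -1.11 to -0.04 with a median of -0.57. The 3 members with a CHR match only had a median of -0.29, and the 3 with CCAAT only, Ccnb1, Cenpe and Nek2, a median of -0.67. The 5 with neither motif ran from -0.56 for Nusap1 to 1.06 for Pttg1, with a median of -0.08, and include Mad2l1 and Birc5. Of these 5, the windows of Mad2l1 and Pttg1 do not span the GENCODE start. The 7 members with no window had a median of -0.56. In Th2 cultures against CD4 T cells the medians were 2.88 with both motifs and 3.07 with neither.

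**Figure D5:**
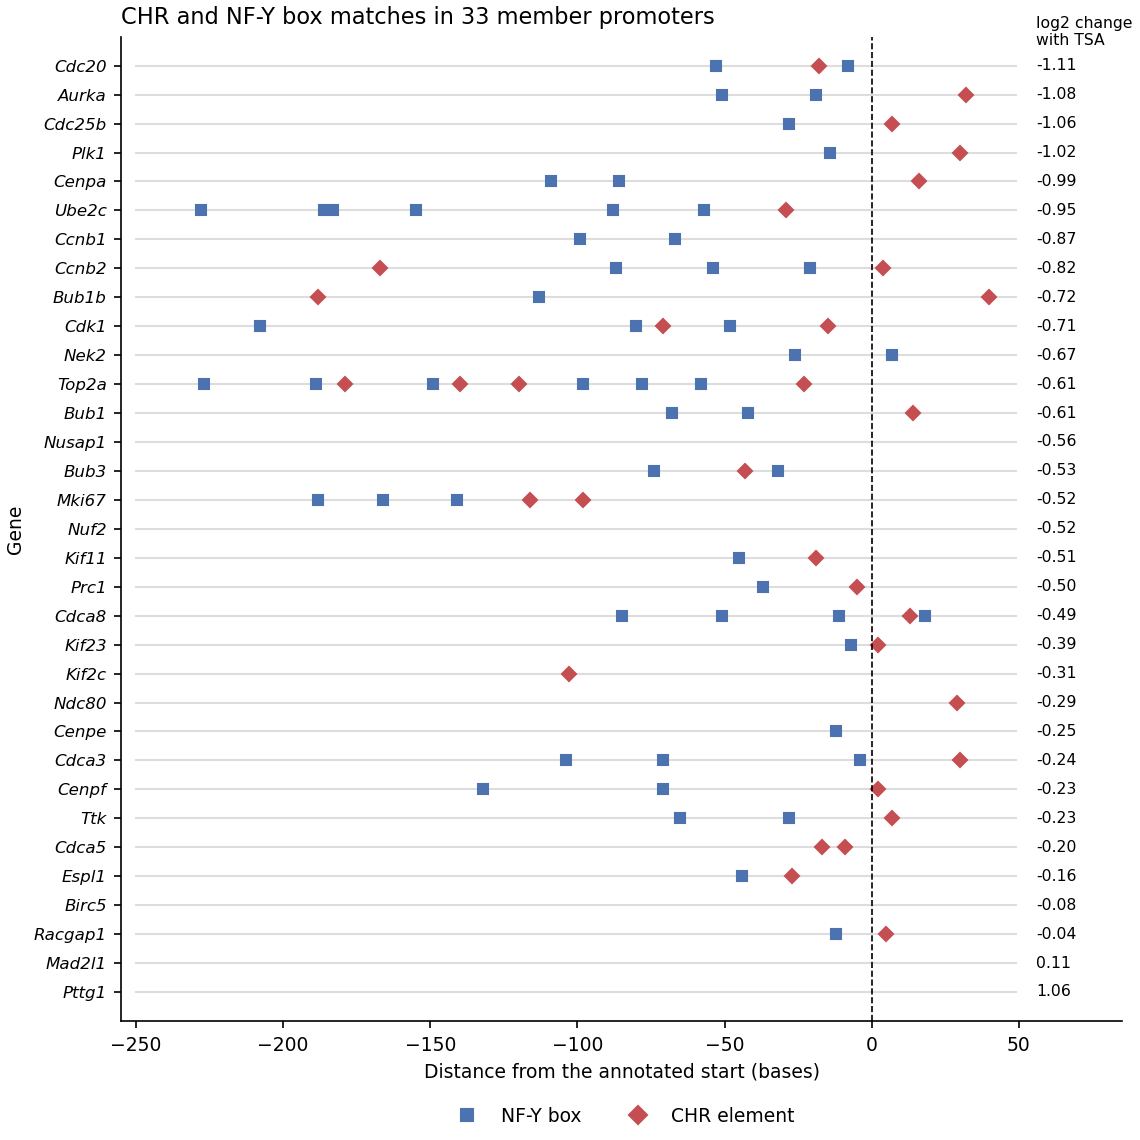
Position of each CHR match (diamonds) and NF-Y box match (CCAAT, squares) relative to the annotated start (x axis, bases) in 1 window for each of the 33 members with a RefSeq entry, ordered by the log2 change with TSA printed at the right. Most windows hold a diamond within 100 bases of the start, and the windows of Nusap1, Nuf2, Birc5, Mad2l1 and Pttg1 are empty.

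Other values moved with TSA in the same libraries. Ribosomal protein genes took 17.3% and 18.9% of summed FPKM without TSA and 22.3% and 22.8% with it. B cell markers summed to 4.61 and 6.78 FPKM without TSA and 20.1 and 48.4 with it, and 3 of 10 were called higher. T cell markers summed to 2126 and 2227 without and 1870 and 2007 with it. The part of these in the members' result was not tested.

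The 2 experiments differed among themselves. Library 1 was higher than library 2 in 32 of 40 members without TSA and in all 40 with it, with medians of 0.11 and 0.33 on the log2 scale. Members with transcripts over 4000 bases (n = 9) had medians of 0.21 without and 0.50 with TSA, and those of at most 2000 bases (n = 11) had 0.01 and 0.29. Across the 40 genes, which are not independent replicates, the ratio of library 1 to library 2 went with transcript length at r = 0.47 (rho = 0.32) without TSA and r = 0.55 (rho = 0.39) with it, and at r = 0.39 and 0.35 over 5043 genes. The ratio of treated to untreated level within an experiment went with length at r = 0.16 and 0.09 over the members, and at r = -0.17 and -0.14 over the 5043 genes.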

How the data were processed

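Libraries were made from total RNA with the TruSeq RNA v2 kit, per the labels' protocols. The deposited files give FPKM per transcript row, made by the authors with Bowtie 0.12.8, TopHat 1.3.2 and Cufflinks 2.0.2 on mm10, per the submitters' processing notes; how reads that match several places or strands were counted is not given in the sources used here. Depth is unknown, so no counting intervals are given. Each file held 21035 rows, and a gene took its highest row (5 members have more than 1). Ccnb1 and Ccnb2 have pseudogene copies that could share reads. The two-sided test was that of limma 3.58.1 (R 4.3.3), run on log2(FPKM + 1) for genes at 1 FPKM or more in 2 or more libraries, with 7 samples and 2 residual degrees of freedom; this scale understates the change of low genes. The single ES and CD4 T samples are assumed to vary like the Th2 groups. Genes at 0 in all files of 1 kind got no fold change. The fit was tested on simulated data. Tables were handled with pandas 2.3.3 in Python 3.11.15. Alternatives were other pseudocounts, row rules, scalings, filters, left-out libraries, 10 separate libraries and a replicate block. The members, lists, motifs and tests were chosen with earlier results of these data known. Values in every library are given for members with the highest or lowest level, the largest and smallest changes, all calls with TSA and at least 2 members of each role group; of other lists at most the 2 largest and the 2 most opposite changes are named. Overlaps of exons come from GENCODE.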

Additional observations from a re-analysis of the deposited data

How the results depend on the processing

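The count of members called in Th2 against CD4 T cells (39) stayed between 38 and 40 under the other settings of rows, pseudocount, scaling and filter. This count was lower without either Th2 library, in fits with 1 residual degree of freedom that also called fewer of all genes. For Th2 against ES cells (14) it was 30 with 10 separate libraries and 4 without either Th2 library. For TSA against Th2 (7) it was 11 after quantile normalization, 2 with no filter on low values, 30 with 10 separate libraries and 0 without any one of the 4 libraries, where the fit has 1 residual degree of freedom. The counts over all genes moved too: in TSA against Th2, 1255 were called higher and 587 lower, 1166 and 1075 after quantile normalization, 920 and 386 of 14589 with no filter, 3935 and 2896 with 10 separate libraries and 0 without a Th2 library. In Th2 against ES cells, 2355 were higher and 5329 lower, and 3438 and 6976 with 10 separate libraries. By the size rule, the members past it in ES against CD4 T cells (31) were 31 to 32 without a replicate of each group, those in ES against B cells (32) were 32, and those in CD4 T against B cells stayed at 0. The TSA value of Mad2l1 (0.11) ran from -0.0341 to 0.2475 with a library left out and was below 0 without Th2 library 2 (-0.019) or TSA library 1. That of Racgap1 (-0.04) turned to 0.0511 after quantile normalization and ran from -0.2007 to 0.1224 with a library left out, above 0 without Th2 library 1 (0.0682) or TSA library 2. The mean summed FPKM of the members was, with sums, with means of rows and with median-ratio scaling, 2517, 2347 and 2132 in ES (2382 as reported), 427, 368 and 361 in B (373), and 444, 394 and 366 in CD4 T cells (400.2). It was 3166 with sums and 3074 with median-ratio scaling in Th2 (2793), and 2233 with sums in TSA cultures (1940.3). With sums, a value held by several rows of a gene counts more than once, and 5 members have more than 1 row. In the Th2 files the rows were identical for 1163 of 1449 symbols with several rows. The part of this in the shifts was not tested. For single genes, 690 values kept direction and side of the threshold, 76 lost and 23 gained a call, 23 moved and 5 changed sign. Unknown depth limits what can be said of low levels.

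The Th2 and TSA libraries share experiment numbers 1 and 2, but the labels do not say that a number marks a shared batch, and 2 pairs are too few to show it. Deviations of same-numbered libraries from their group means correlated at 0.58 over 12907 genes and 0.69 over the members. With the number as a replicate block, TSA against Th2 called 8 members (7 lower, 1 higher), where 19.3% of all genes were called. The block with 10 separate libraries called 40 members in Th2 against CD4 T cells, where 80.6% of all genes were called. In Th2 against ES cells it called 32 members, where 84.7% of all genes were called.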
